A study of Mus musculus with 2 samples.

Results

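The genes described here are regulators, receptors, adhesion molecules and transport proteins of the mesonephros, the Müllerian duct and kidney epithelium. They were named as a list of 36 genes, and their probe sets were those with exactly 1 annotated gene symbol equal to a listed gene. Of the 36, 35 had such a probe set, among 18193 genes represented on the array, and together they held 68 probe sets. No probe set carried Pax2 as its only symbol. RNA came from gonads of XX mouse embryos at E12.5, dissected together with the adjoining mesonephros as one complex. The wild-type group was 1 array with RNA of 6 pairs of complexes, without a stated strain. The mutant group was 1 array with RNA of 6 pairs of complexes homozygous for the Gata4ki allele (Gata4ki/ki), labelled C57Bl/6. Gata4ki encodes a form of the transcription factor GATA4 that binds its FOG cofactors poorly, and the study asked what the developing ovary needs that complex for. With 1 array per group no replicate error and no test exist, so each difference below describes these 2 arrays.

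The mesonephros is the transient kidney beside the gonad. Its nephric (Wolffian) duct is an epithelial tube that depends on PAX2, PAX8 and LHX1 and carries the receptor RET, and the Müllerian duct forms next to it as the source of oviduct and uterus. The definitive kidney arises when GDNF, secreted by SIX2- and OSR1-positive mesenchyme, signals through RET and its co-receptor GFRA1 on a branch of the nephric duct. In XX embryos the nephric duct later regresses for want of androgen. The Müllerian duct persists because the fetal ovary does not secrete anti-Müllerian hormone, whose receptor is AMHR2. A GATA factor of these tubes is GATA3, whereas GATA4 is known from the somatic gonad.

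The values are MAS5 signals, the brightness of a probe set scaled by 1 factor per array, and were used as the authors deposited them. Trimmed of 2% of probe sets at either end, the mean signal of each array was 150.0. A floor of 24.0, the 50th percentile over both arrays, was set before taking log2, and a gene was represented by its brightest probe set. Measured genes are those that passed the floor on 1 array or both. Where only 1 array passed it, the ratio is a bound, given as "at least". Ratios are mutant over wild type, and signals of different genes are not comparable with each other. As a measure of array noise, the robust SD of the log2 ratio was taken over single-symbol probe sets above the floor on both arrays. It was 0.38 where the mean signal was under 100, 0.22 between 100 and 400, and 0.13 beyond 400. The 3'/5' signal ratios of the control transcripts, a sign of RNA quality, were 2.16 (wild type) and 2.47 (mutant) in beta-actin, while Gapdh had 0.90 and 1.10.

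With signals floored, no gene of this list lay 2-fold apart between the arrays. For Tfap2b, Six2 and Umod the ratio is a bound, so a larger difference is possible. The lowest ratios of mutant to wild type were those of Tfap2b, Calb1, Bcam and Amhr2. Of the 35 genes, 32 were measured, 29 of them on both arrays, while Gdnf, Crym and Aqp2 were not above the floor on either. The background over all 12300 measured genes was 0.846% for a mutant excess of 2-fold or more and 0.537% for a deficit of 2-fold or more, so a count of 0 of 32 is near the background. At 1.5-fold, 2 of the 32 were lower, Tfap2b and Calb1, and none was higher, beside a background of 3.11% lower and 3.54% higher. The sodium-phosphate carrier Slc34a1 lay just under that line, at 1.4986-fold higher, and passed it when the arrays were scaled to their 75th percentile or quantile normalized (log2 ratio 0.59 and 0.60). That scaling changed the split at 1.5-fold from 0 higher and 2 lower to 1 higher and 2 lower. The median log2 ratio of the 32 was 0.03, against 0.01 over all measured genes, and 18 were above 0 and 14 below. Of all 12300 measured genes, 48.6% were below 0, which is the background for each count of signs given below. The median of the list thus lay close to that of all genes, with single genes on either side.

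**Figure D1:**
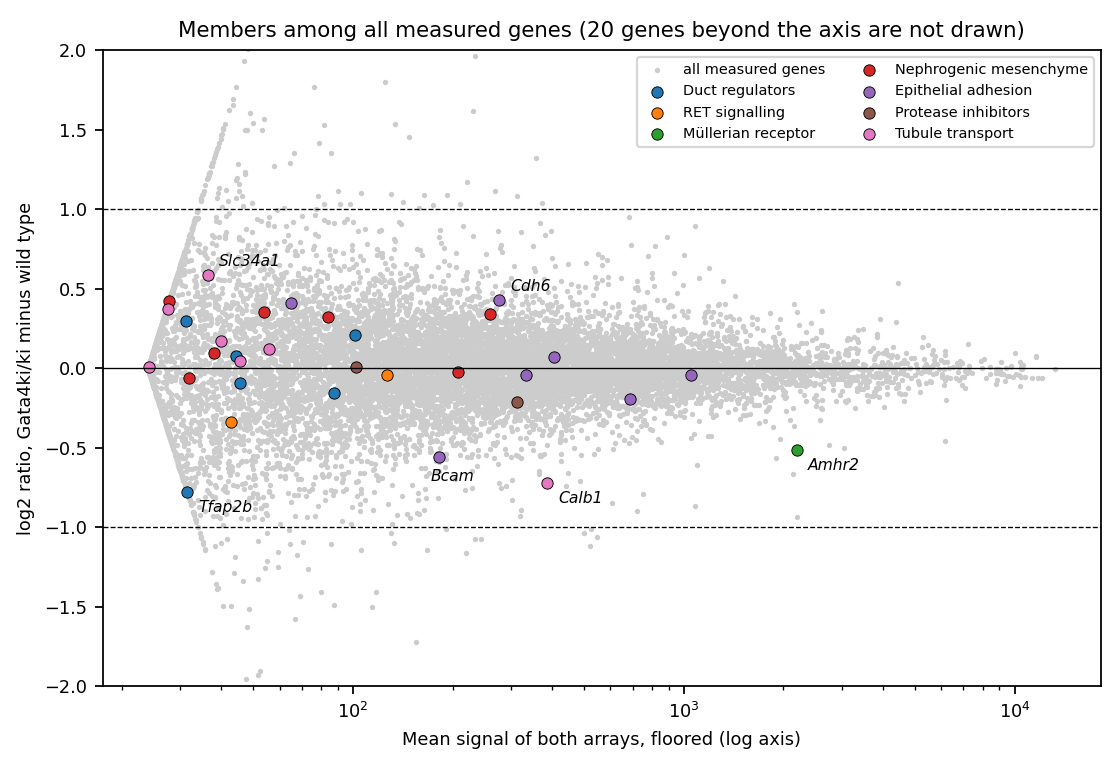
Log2 ratio (Gata4ki/ki minus wild type) against the mean floored signal of both arrays on a log axis, for all measured genes (grey) and the 32 measured genes of the list (coloured by role); dashed lines mark 2-fold. The coloured points lie between -0.78 and 0.58, with Amhr2, Calb1 and Bcam below the bulk of genes of like signal.

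Most of the list was dim. The mean signal was under 100 for 18 of the 32 genes, or 56.2%, against 31.1% of all measured genes. With both arrays above the floor, 13 of 15 such genes lay within 1.3-fold, beside 68.3% of all genes at that signal. From 100 to 400, 7 of 10 did, beside 88.4%, and above 400 it was 3 of 4, beside 96.6%. The genes outside 1.3-fold were Slc34a1 and Pkhd1 among the dim ones, Calb1, Bcam and Cdh6 at middle signals, and Amhr2 among the bright ones. The other 3 dim genes, Tfap2b, Six2 and Umod, are known as bounds only.

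Amhr2, the type II receptor for anti-Müllerian hormone, made by the mesenchyme around the Müllerian duct and by somatic cells of the gonad, had a lower mutant signal on each of its 3 probe sets. Its brightest probe set gave 2620 in wild type and 1838 in the mutant, 1.43-fold lower, a log2 ratio of -0.51. The next gave 1586 and 1119, a ratio of -0.50, and the dimmest 279.8 and 170.2, a ratio of -0.72 or 1.64-fold lower. The brighter probe sets of Amhr2 carry a suffix for probes that may also match other transcripts, and the dimmest does not. Of the 3755 measured genes with a mean signal above 400, 0.533% had a ratio as low as that of Amhr2. Gonad and mesonephros were not separated, so fewer cells of a type and less RNA per cell cannot be told apart, for Amhr2 or any gene below. Genes of the ovarian supporting cells, which lie in the gonad, had a median log2 ratio of -0.69 on these arrays. Of these 10 genes, 7 were below 0 and 3 above, and their part in the value of Amhr2 was not tested.

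The stretch before the transcription start of Amhr2 is shown because this gene had the lowest ratio among the bright genes of the list and because GATA4 is the altered factor. The bases before the start were taken from RefSeq (GRCm38.p6), which held promoters for 28 of the 36 genes, and were searched on both strands for the GATA letters (AGATAA or AGATAG, and likewise TGATAA or TGATAG) and for AAGGTCA, the core bound by steroidogenic factor 1 (SF1). The Amhr2 stretch, chr15:102445117-102445366 on the + strand, is printed 5′ to 3′ and ends at the base before the start, with matches in capitals.
Amhr2: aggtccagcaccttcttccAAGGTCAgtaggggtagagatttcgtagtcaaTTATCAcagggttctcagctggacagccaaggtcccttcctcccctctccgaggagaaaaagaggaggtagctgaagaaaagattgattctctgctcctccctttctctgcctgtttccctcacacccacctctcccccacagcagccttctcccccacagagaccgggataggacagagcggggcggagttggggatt
It holds AAGGTCA beginning 231 bases before the start and TTATCA, which is TGATAA on the other strand, beginning 199 bases before it. Over all 32851 promoters of this length, 26.5% held a GATA match and 4.08% held AAGGTCA, and by gene, with any of its promoters, the shares were 29.8% and 4.70%. Of the 28 listed genes with a promoter, 6 had a GATA match (Amhr2, Aqp2, Cdh6, Gdnf, Sall1 and Six2), and 2 had AAGGTCA, Amhr2 and Cited1. A match is a description of the letters and shows no binding.

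The transcription factors of the nephric and Müllerian ducts gave similar signals on both arrays, except Tfap2b. Pax8, a paired-box factor required with Pax2 for the nephric lineage, gave 92.4 in wild type and 83.1 in the mutant, a log2 ratio of -0.15. Lhx1, the LIM homeobox factor needed to form both ducts, gave 94.1 and 108.9, a ratio of 0.21. The ratio of Lhx1 turned to -0.17 with the median of its probe sets, since its dimmer one gave 35.2 and 22.6, a bound of -0.55. Sim1, a bHLH-PAS factor of the nephric duct, gave 47.2 and 44.2, a ratio of -0.10. Emx1, a homeobox paralogue of the duct regulator Emx2, gave 28.1 and 34.5, a ratio of 0.30 close to the floor. These 4 ratios were within the robust SD at their signals, 0.22 for Lhx1 and 0.38 for the others.

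The AP-2 factors differed from each other. Tfap2a, a regulator of surface ectoderm and neural crest as well as of kidney epithelium, gave 43.1 and 45.4, a ratio of 0.08, but -0.25 on its other measured probe set, which is also its value without suffixed probe sets. Tfap2b, which is needed for distal nephron and collecting duct and is also made by sympathetic neurons and neural crest, gave 41.2 in wild type and 21.4 in the mutant. With the mutant array under the floor, Tfap2b was at least 1.72-fold lower, a bound of -0.78, and its second probe set passed the floor on neither array. Of the 3823 measured genes with a mean signal under 100, 3.24% were as low. The value of Tfap2b ranged from -0.94 to -0.61 in the alternative settings that measured it, and it was not measured with the floor at the 60th percentile. Its promoter stretch, chr1:19211804-19212053 on the + strand, is shown as that of the lowest gene of the list.
Tfap2b: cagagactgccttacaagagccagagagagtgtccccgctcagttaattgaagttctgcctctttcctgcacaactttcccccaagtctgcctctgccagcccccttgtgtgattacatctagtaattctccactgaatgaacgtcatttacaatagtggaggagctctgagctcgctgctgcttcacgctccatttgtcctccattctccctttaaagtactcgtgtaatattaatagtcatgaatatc
It holds no match to the GATA or SF1 letters in this window.

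Of the RET signalling genes, the co-receptor was almost equal, the receptor had probe sets on both sides of 0, and the ligand was not above the floor. Ret, the receptor tyrosine kinase of the nephric duct and ureteric bud, gave 48.2 and 38.1, a log2 ratio of -0.34, while its second probe set gave 23.2 and 26.3, a bound of 0.13. Gfra1, the GDNF co-receptor, gave 128.5 and 124.5, a ratio of -0.05, and -0.11 on its second measured probe set. Gdnf, the ligand made by kidney mesenchyme, gave 9.24 and 8.58, both under the floor of 24.0. Ret is also expressed by enteric neural crest cells, and the 2 measured genes of this group do not say which cells gave the signal.

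The genes of the nephrogenic mesenchyme had the highest median of the groups, 0.32, which is the value of Sall1. With signals floored, 5 of 7 were above 0 and none was at 1.5-fold. Foxd1, a forkhead factor of the kidney stroma, gave 231.0 and 292.5 on its single probe set, a log2 ratio of 0.34, and 7.73% of genes from 100 to 400 were as high. Eya1, a transcriptional co-activator upstream of Gdnf, gave 47.6 and 60.9, a ratio of 0.36, and 19.1% of genes under 100 were as high. Sall1, a zinc finger repressor of the progenitors, gave 75.1 and 93.8, a ratio of 0.32, and 21.3% were as high. The ratios of Eya1 and Sall1 were within the robust SD of 0.38 at their signals, and their other probe sets stayed under the floor. Six2, the factor that keeps nephron progenitors undifferentiated, gave 16.3 and 32.2, and was at least 1.34-fold higher with wild type under the floor. With the floor at the 40th percentile Six2 had a ratio of 0.98.

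The remaining mesenchymal regulators were almost equal. Cited1, a co-regulator of the earliest progenitors, gave 36.7 and 39.3, a ratio of 0.10. Osr1, the odd-skipped factor of intermediate mesoderm, gave 32.5 and 31.2, a ratio of -0.06. Osr2, its paralogue in mesonephros and limb, gave 208.8 and 205.2, a ratio of -0.03. Six2, Eya1 and Cited1 are markers of the nephron progenitors of the definitive kidney, and Foxd1 of its stroma. Whether a part of that kidney was dissected with either set of complexes was not tested. Stromal mesenchyme markers had a median of 0.15 on the same arrays, with 8 of 10 above 0.

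Among epithelial adhesion genes, Bcam was lower in the mutant, Cdh6 and Pkhd1 were higher on their brightest probe sets, and the pan-epithelial genes were equal. Cdh1, which encodes E-cadherin, gave 394.4 and 414.2, a log2 ratio of 0.07. Epcam, an epithelial adhesion molecule, gave 336.9 and 327.6, a ratio of -0.04, and 0.37 on a dimmer, suffixed probe set. The brighter probe set of Epcam is suffixed too. Both genes are expressed by duct epithelium and by primordial germ cells, whose markers had a median of 0.06 with 8 of 12 above 0. Cdh16, kidney-specific cadherin of tubules and duct, gave 735.8 and 643.9, a ratio of -0.19, and 8.39% of genes above 400 were as low.

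Cdh6, K-cadherin of the forming proximal tubule, had probe sets that pointed opposite ways. Its brightest probe set gave 238.7 and 321.9, a ratio of 0.43, and its other one 70.7 and 48.5, a ratio of -0.54, so that the median was -0.06. Pkhd1, the fibrocystin gene mutated in recessive polycystic kidney disease, gave 56.4 and 75.1, a ratio of 0.41. Npnt, nephronectin, the matrix ligand through which duct epithelium signals to integrin alpha8 on mesenchyme, gave 1065 and 1036, a ratio of -0.04. The other 3 measured probe sets of Npnt ranged from -0.36 to 0.13. At the signal of the brightest Npnt probe set, the robust SD was 0.13.

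Bcam, the Lutheran glycoprotein that binds laminin alpha5, gave 221.1 in wild type and 150.3 in the mutant, 1.47-fold lower, a log2 ratio of -0.56. Of the 4722 measured genes from 100 to 400, 1.95% were as low. Bcam has 1 probe set on this array, whose suffix is of another kind (_a) than those of Amhr2 (_x), and the protein is also found on endothelium. Endothelial markers had a median of -0.22 on these arrays, with 10 of 12 below 0, and their part in the value of Bcam was not tested. Its promoter stretch, chr7:19770533-19770782 on the - strand, is shown for comparison with that of Amhr2.
Bcam: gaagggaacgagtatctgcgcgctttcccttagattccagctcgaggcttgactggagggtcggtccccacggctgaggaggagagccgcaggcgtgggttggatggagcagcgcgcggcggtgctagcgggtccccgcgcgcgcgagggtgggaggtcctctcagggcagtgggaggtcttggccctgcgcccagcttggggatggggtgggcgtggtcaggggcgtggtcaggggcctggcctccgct
It too holds no match to the GATA or SF1 letters in this window.

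The 2 Kunitz-type inhibitors of epithelial serine proteases were close to equal. Spint1, which restrains the protease matriptase and the activator of hepatocyte growth factor, gave 101.7 and 102.2, a log2 ratio of 0.01. Spint2, its relative with a wider protease range, gave 337.0 and 291.2 on its brightest probe set, a ratio of -0.21. The other probe set of Spint2 gave 175.3 and 215.7, a ratio of 0.30, which turned the gene's median to 0.04. The brightest one has the _x suffix of the brighter Amhr2 probe sets, and the other an _a suffix.

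Of the tubule transport and binding proteins, Calb1 was lower in the mutant, Slc34a1 had the highest ratio of the list, and the endocytic receptors were close to equal. Calb1, calbindin D28k, a calcium buffer of the mesonephric and distal tubules and of the duct, gave 496.2 in wild type and 301.2 in the mutant. It was 1.65-fold lower, a log2 ratio of -0.72, and 0.953% of genes from 100 to 400 were as low. The other 3 probe sets of Calb1 stayed under the floor on both arrays. Calb1 was the only gene of the list at 1.5-fold with both arrays above the floor.

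The proximal tubule genes did not share that direction. Lrp2, megalin, the endocytic receptor of proximal tubules, gave 53.5 and 58.1, a log2 ratio of 0.12, and -0.02 on its second measured probe set. Cubn, cubilin, its partner, gave 37.5 and 42.2, a ratio of 0.17. Slc34a1 gave 29.7 and 44.6, a ratio of 0.58, the highest of the list, and 8.61% of genes under 100 were as high. Umod, uromodulin of the thick ascending limb, gave 8.38 and 24.2, so that the mutant signal only just passed the floor. Its bound of 0.01 became 0.82 with the floor at the 40th percentile and 0.72 with a pseudocount.

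The aquaporins were dim or not detected. Aqp1, the water channel of proximal tubules, endothelium and red cells, gave 44.8 and 46.2, a ratio of 0.05. Aqp3, a basolateral water and glycerol channel of the collecting duct, gave 24.2 and 31.3 on its brightest probe set, a ratio of 0.37, with its other 3 under the floor. Aqp2, the vasopressin-regulated channel of the collecting duct, gave 10.86 and 11.05. Crym, a thyroid hormone binding crystallin, gave 9.11 and 9.95. The last pair of genes was below the floor of 24.0 on both arrays, which leaves no ratio to give.

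**Figure D2:**
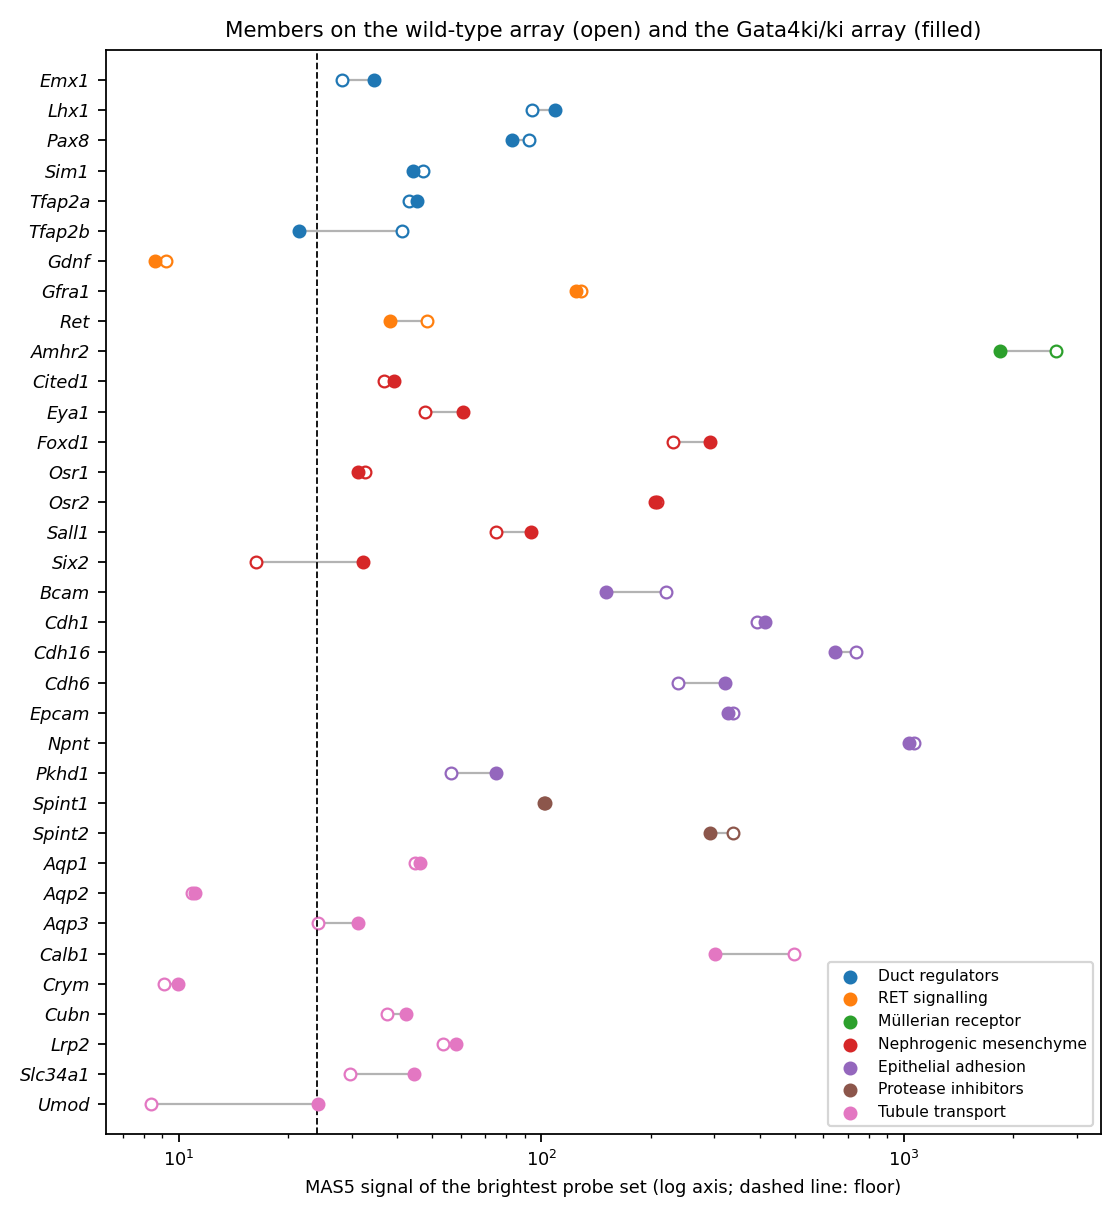
MAS5 signal (log axis) of the brightest probe set of each of the 35 genes on the wild-type array (open) and the Gata4ki/ki array (filled), grouped by role; the dashed line is the floor of 24.0, and signals of different genes are not on a common scale. Amhr2 (2620 and 1838), Calb1 (496.2 and 301.2) and Bcam (221.1 and 150.3) show long gaps toward the lower mutant signal, while Tfap2b, Six2 and Umod cross the floor.

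Probe sets of 1 gene often disagreed. Of the 10 listed genes with at least 2 measured probe sets, Amhr2 and Gfra1 had all of them on the same side of 0, or 20.0%, against 45.0% of 5463 genes of the array. The other 8 were Lhx1, Tfap2a, Ret, Cdh6, Epcam, Npnt, Spint2 and Lrp2. Probe sets read the same RNA, so their spread is that of the probes and not of embryos. For the genes with opposite signs, no direction can be given from these arrays.

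**Figure D3:**
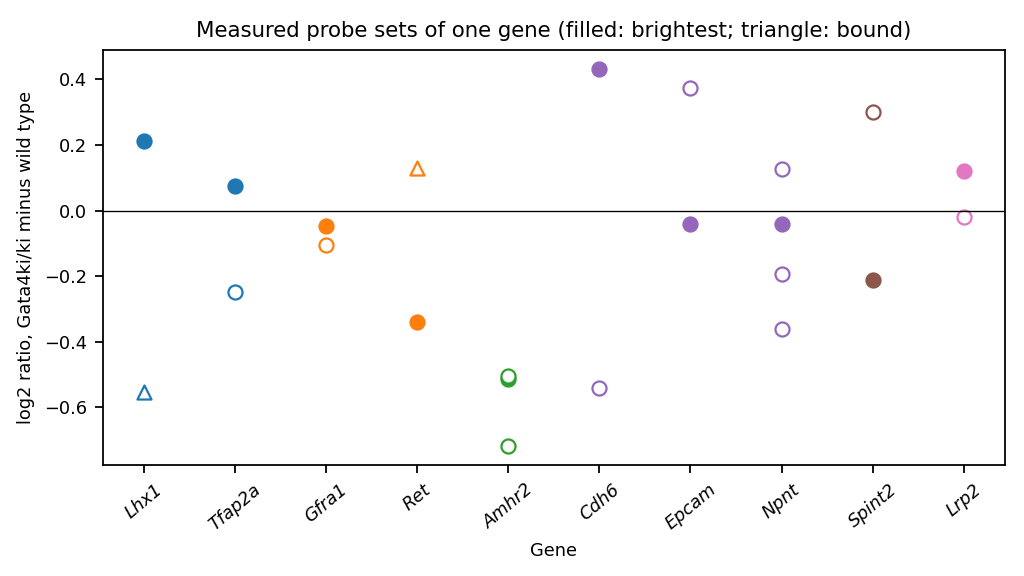
Log2 ratio (Gata4ki/ki minus wild type) of each measured probe set for the 10 genes that have at least 2, with the brightest probe set filled and bounds drawn as triangles. The 3 probe sets of Amhr2 lie between -0.72 and -0.50, whereas those of Cdh6 lie at 0.43 and -0.54.

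Genes that work with these regulators and transporters were examined next. In 8 lists of partners written from general knowledge, 108 of 160 genes were measured, and with signals floored none was 2-fold apart. Of the 108, 2 were at least 1.5-fold higher and 6 at least 1.5-fold lower, beside 3.54% and 3.11% of all measured genes. The median log2 ratio of the 108 was 0.01. Of 14 other duct and Müllerian genes, 11 were below 0, beside 48.6% of all measured genes, and the median was -0.17. Wnt7a, the ligand of Müllerian epithelium, gave 67.8 and 43.9, a ratio of -0.63, but its second probe set gave 0.34. Hoxa11, a homeobox gene of uterus and kidney mesenchyme, gave 36.1 and 17.7, a bound of -0.59. Bmp7, a survival factor for nephron progenitors, had a ratio of -0.36, and -0.02 on its second measured probe set. Wnt9b, Gata3 and Emx2, duct regulators fixed as markers of the tissue, had ratios of -0.15, -0.08 and -0.23.

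Partners of RET and of the nephrogenic mesenchyme lay on both sides. In the RET list 8 of 16 were above 0, with Hgf, the ligand of the MET receptor, at -0.59 and Nrtn, which encodes neurturin, at 0.57. Gfra4 gave 14.9 and 35.7, a bound of 0.57. Among 15 mesenchymal partners none was 1.5-fold apart and the median was 0.01, with Fgf9 at -0.47, Eya4 at 0.37 and Meox1 at -0.35 or lower. The second probe set of Fgf9 gave -0.13 and that of Eya4 -0.15, opposite in sign to its brightest. The median of that list was thus lower than the 0.32 of Osr1, Osr2, Eya1, Sall1, Six2, Cited1 and Foxd1.

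Partners in adhesion, proteolysis and uptake gave a few larger values in dim genes. Of 27 junction and polarity genes 15 were above 0, with Cldn4, a tight junction claudin, at 0.71, Cdh3, P-cadherin, at -0.63 and Pard6b, a polarity protein, at 0.48. In the list around SPINT1 and SPINT2 the protease Prss8 had a ratio of 0.42 and the receptor Mst1r one of -0.37. Of 9 partners of megalin and cubilin 8 were above 0, with a median of 0.21. Amn, amnionless, which carries cubilin to the membrane, gave 31.7 and 44.0, a ratio of 0.47, and Rbp4, a retinol carrier taken up by megalin, was at 0.43 or higher. Ctns, the lysosomal cystine transporter, gave 52.0 and 27.3, a ratio of -0.93. Dab2, the adaptor of megalin, gave 791.2 and 1044, a ratio of 0.40, and its other probe sets ranged from 0.03 to 0.33. Dab2 is also made by macrophages, whose markers had a median of 0.62. Their part in the values of this list was not tested.

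The remaining tubule genes were mostly not measured. In that list 12 of 31 were, of which 4 as bounds, with a median of -0.04. Of the 12, 4 were above 0 and 8 below. The sodium channel subunits Scnn1g (19.2 and 42.7) and Scnn1a (14.2 and 35.8) were at 0.83 and 0.57 or higher. The subunit Scnn1b (32.2 and 19.6) went the other way, at -0.42 or lower. Hnf4a, a nuclear receptor of proximal tubules, was at 0.43. Of 10 cilium and cystic kidney genes 8 were above 0, with Nphp4 at -0.74, Pkd1 at 0.37 and Bbs2 at 0.24. Among the partner genes of all 8 lists with a mean signal of 100 or more, the ratio farthest from 0 had a size of 0.48, below those of Amhr2, Bcam and Calb1.

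**Figure D4:**
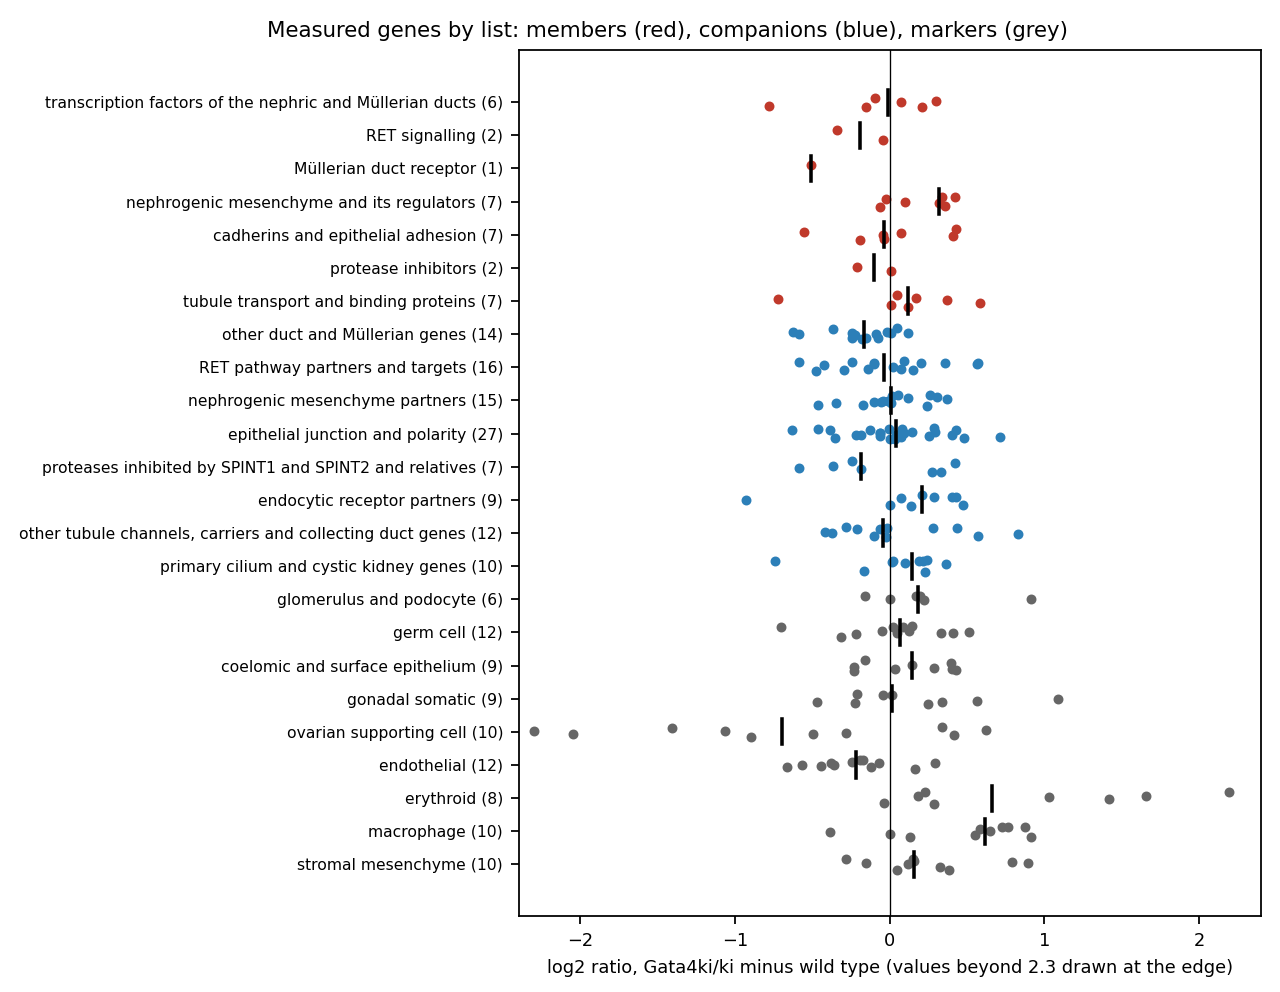
Log2 ratio (Gata4ki/ki minus wild type) of each measured gene, by list, with the number measured in parentheses and the list median as a black bar. The listed genes (red) and their partners (blue) have medians between -0.51 and 0.32, while the ovarian supporting cell list (grey) has a median of -0.69 and the erythroid and macrophage lists 0.66 and 0.62.

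The tissue labels were checked against markers. Of the 9 mesonephric duct and tubule markers, 7 had a probe set, and all 7 were above the floor on both arrays. The wild-type array passed the floor for 2 of 3 nephron progenitor markers and 2 of 4 mature tubule markers, the mutant array for 3 of 3 and 3 of 4. Of the gonadal somatic markers, which include the duct regulator Emx2, 9 of 9 were above the floor on both arrays, with a median of 0.01. Of these only the orphan nuclear receptor gene Nr0b1 reached 2-fold and was higher, with 112.5 and 239.6. Gata4 and Zfpm2, which encodes FOG2, had ratios of 0.25 and 0.56 on their brightest probe sets and -0.51 and 0.97 on the others, which gives Gata4 no direction. The labels cannot be checked by these transcripts, because the mutation changes the protein. Macrophage markers had a median of 0.62, with 5 of 10 at least 1.5-fold higher, beside 3.54% of all measured genes. Erythroid markers had a median of 0.66, with 4 of 8 at least 1.5-fold higher, and endothelial markers one of -0.22. Coelomic and surface epithelium markers had a median of 0.15, with 6 of 9 above 0 and 3 below. Podocyte markers had one of 0.18, with 5 of 6 above 0. The marker farthest from 0 was Fst at -3.55 among supporting cell genes, Hemgn at 2.19 or higher among erythroid, Ptprc at 0.92 among macrophage and Sox17 at -0.66 among endothelial genes. Among germ cell genes it was Dnd1 at -0.71, although 8 of 12 of that list were above 0 and its median was 0.06. It was Acta2 at 0.89 among stromal genes, whose median was 0.15, Krt8 at 0.43 among coelomic and Synpo at 0.92 among podocyte genes. The part of these other cells in the values of the mesonephric, Müllerian and kidney genes was not tested.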

How the data were processed

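RNA of gonad-mesonephros complexes was hybridised to 1 oligonucleotide array per genotype. The authors' deposited values are linear signal intensities; MAS5 is named per the submitters' processing notes, and a version or filter was not given in the sources used here. No normalization was added. Signals were floored at the 50th percentile over both arrays (24.0), then log2 was taken. Such values are least precise near the floor. Of 45101 probe sets, 34958 had 1 symbol in the platform's annotation, 932 had several and 9211 were not listed. The 64 control probe sets were left out. All 35 genes with a probe set matched RefSeq (GRCm38.p6) by gene number. The rule for named genes took all members, partners at least 2-fold apart, up to 3 genes per partner or marker list with the largest ratios (for marker lists the first is given), and Gata4 and Zfpm2. Wnt9b, Gata3, Emx2, Dab2 and Scnn1b were named outside it. Members and lists were chosen with earlier results of these data known. With 1 array per group there was no test, and counts past 2-fold and 1.5-fold were set beside all measured genes. The fold count was tested on simulated data. Alternatives were 2 other floors, a pseudocount of 16, the median of probe sets, no suffixed probe sets, and 2 scalings. Python 3.11.15, numpy 2.4.6 and pandas 2.3.3 were used.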

Additional observations from a re-analysis of the deposited data

How the results depend on the processing

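No gene of the list reached 2-fold in either direction in any of the 7 alternative settings. The count at least 1.5-fold higher, 0 of 32, became 2 of 32 with the floor at the 40th percentile (Six2 and Umod). It was 1 of 32 with the pseudocount (Umod) and with either scaling (Slc34a1). Over all measured genes, 798 of 13957 were that much higher with the lower floor and 406 of 12300 with the pseudocount. It was 439 of 12300 when scaled to the 75th percentile and 443 of 12299 when quantile normalized. The count at least 1.5-fold lower, 2 of 32, became 1 of 19 with the floor at the 60th percentile, where Tfap2b was not measured. Over all measured genes, that floor gave 186 of 10634. Without suffixed probe sets the count was 3 of 26, where Amhr2 joined, beside 380 of 10614 measured genes. The median of the list ranged from -0.03 to 0.06. Of 205 single values in these settings, 7 moved by more than the robust SD at their signal. The sign held in every setting for 27 genes and changed for 5, Lhx1, Cdh6, Epcam, Tfap2a and Spint2, where another probe set was used. Over all genes, the counts at least 2-fold higher and lower, 104 and 66, became 210 and 136 with the lower floor and 41 and 33 with the higher one. No paired analysis was possible because each group is 1 array. Signal over background limits the dim genes, which are 18 of the 32.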
